A study of Mus musculus with 12 samples.

Results

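The teneurins, latrophilins and fibronectin leucine-rich transmembrane (FLRT) proteins are 3 families of cell-surface adhesion molecules, and their 10 genes were followed here in the mouse striatum at embryonic day 18.5. The genes were taken by name, Tenm1 to Tenm4, Adgrl1 to Adgrl3 (formerly Lphn) and Flrt1 to Flrt3, and all 10 were found among the 25428 probe sets, with 1 probe set a gene. They were chosen as a family after the genotype difference of Tenm2 was known, so their differences between genotypes are given as a description and not as a test. Expression had been measured on 1 array for each of 12 embryos of the C57BL/6J strain, 6 wild type (WT) and 6 labelled Nestin-Cre (Foxp1-/-), called cKO here. Nestin drives Cre in neural progenitors, so loss of Foxp1 is not limited by design to the projection neurons of the striatum. The labels call the 6 samples of a group biological replicates, and do not say whether WT embryos carried Cre or a floxed allele.

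Teneurins are large transmembrane proteins that reach across the cleft and bind latrophilins, which are adhesion G protein-coupled receptors, on the facing cell. FLRT proteins bind latrophilins at another site and also bind Unc5 receptors, through which they can repel axons and migrating neurons. The 3 families together are known for matching axons to targets and for building synapses.

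The targeted gene was lower in the arrays labelled cKO. Foxp1, a forkhead transcription factor of striatal projection neurons, spanned 10.89 to 11.39 in WT and 10.14 to 10.36 in cKO on the log2 scale of the deposited values, a fall of 0.91 (limma adjusted p = 0.000170). Any pair of arrays correlated at 0.992 to 0.998, and none were identical. The tissue label was checked against markers. A list of 13 projection neuron genes, Foxp1 among them, averaged 9.69 to 9.92 over the WT arrays and 9.61 to 9.76 over the cKO arrays. The 12 without Foxp1 averaged 9.58 to 9.81 and 9.57 to 9.72. These means cover differences of both signs. Of the 13 genes, 8 had an unadjusted limma p below 0.05, 5 lower (Foxp1 among them) and 3 higher. Of all 25428 probe sets, 2729 had such a p. After adjustment over all probe sets only Foxp1 of the 13 was below 0.05. Cortical neuron genes averaged 6.03 to 6.39 and 5.99 to 6.78 (6 of 7 listed genes had a named probe set), dividing progenitor genes 8.17 to 8.62 and 8.41 to 8.70 (5 of 6), and interneuron genes 8.99 to 9.15 and 9.14 to 9.30 (5 of 5), in WT and cKO. Of the interneuron genes the transcription factor gene Maf, named after its values were seen, rose by 0.57 (limma adjusted p = 0.0150), and the other 4 averaged 9.39 to 9.64 in WT and 9.49 to 9.61 in cKO. Astrocyte genes averaged 7.15 to 7.41 in WT and 7.34 to 7.45 in cKO, oligodendrocyte lineage genes 6.86 to 7.31 and 7.03 to 7.15, and endothelial genes 6.64 to 6.77 and 6.65 to 6.78. Microglial genes (5.89 to 5.97 in WT, 5.86 to 5.97 in cKO) and erythroid genes (5.61 to 5.84 in WT, 5.57 to 5.91 in cKO) lay near 5.71, the median of all probe sets, and choroid plexus genes averaged 5.55 to 5.61 in WT and 5.56 to 7.08 in cKO. Among the latter, cKO replicate 1 had a level of 9.96 for the choroid gene Ttr, which was singled out after its values were seen, against 5.39 to 5.57 on the WT arrays and 5.50 to 5.54 on the other cKO arrays. The levels of 3 Y-linked genes were high on 4 WT and 3 cKO arrays, so both sexes were present in both groups.

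Among the teneurins, Tenm2 and Tenm3 were the members with a lower level in cKO by the widest margins, Tenm4 was lower by less, and Tenm1 was not lower. Of the 10 members, 2 passed an adjusted p of 0.05 in the limma fit over all probe sets, both lower in cKO, where 0.728% of all probe sets passed in either direction and 0.429% passed as lower. That count comes from the contrast with which the family was picked, and nothing is read from it. The plot of each array's value around the WT mean shows the teneurins on the left, the latrophilins in the middle and the FLRT genes on the right.

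**Figure D1:**
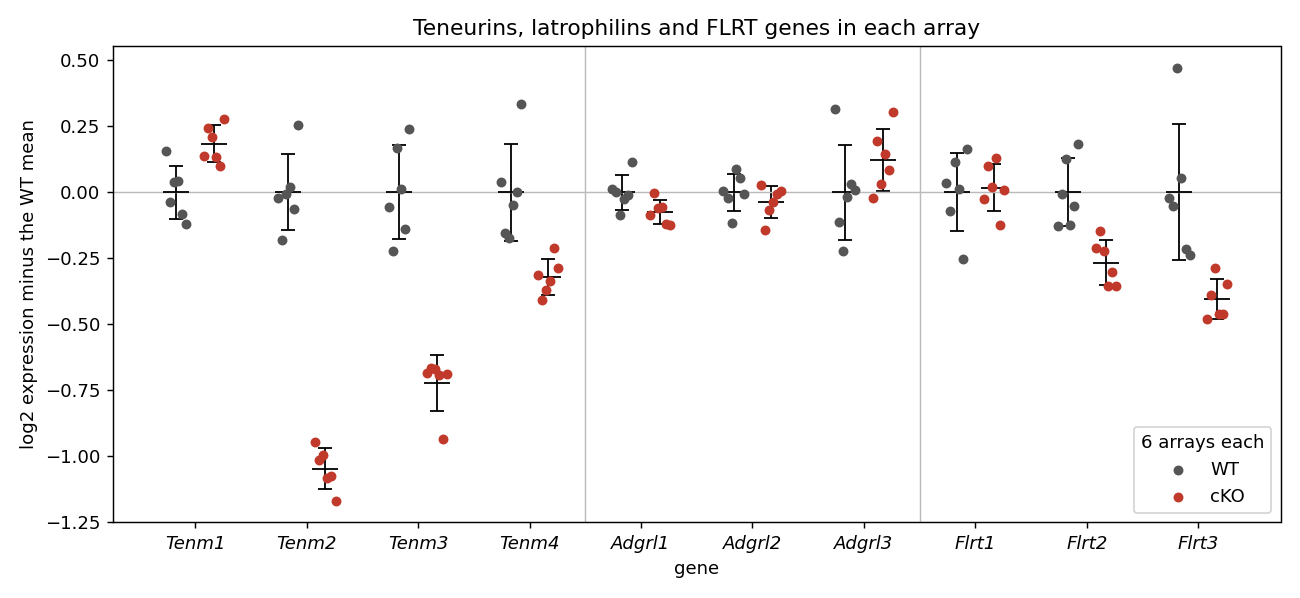
Each point is 1 array; the vertical axis gives its log2 expression minus the WT mean of the same gene, with WT in grey and cKO in red, 6 arrays each, and bars give the group mean ± SD. The red points of Tenm2 and Tenm3 lie far below all grey points, those of Tenm4, Flrt2 and Flrt3 lie just below the lowest grey point, and those of the other 5 genes overlap the grey points.

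Tenm2, a teneurin of the synaptic surface that binds latrophilins, had a log2 level of 9.51 at the lowest, 9.68 at the median and 9.95 at the highest in WT, and of 8.53, 8.65 and 8.75 in cKO. WT replicate 6 was the highest WT array, the cKO arrays lay close together, and a gap of 0.76 separated the lowest WT array from the highest cKO array. The difference was -1.05 ± 0.06 (SE), with a 95% interval from -1.19 to -0.91, or 2.07-fold lower in cKO. It ranged from -1.08 to -0.99 over 23 other settings.

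Tenm3, known for directing axons to matching targets in several sensory and subcortical pathways, spanned 9.35 to 9.81 in WT (median 9.55) and 8.64 to 8.91 in cKO (median 8.89). Of the cKO arrays, 5 lay within a narrow band and replicate 5 lay below them, and no cKO array reached the WT range. The difference was -0.72 ± 0.08 (SE), with a 95% interval from -0.90 to -0.55, or 1.65-fold lower. It ranged from -0.77 to -0.62 over 23 other settings.

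Tenm4, a teneurin needed for myelination by oligodendrocytes, spanned 7.39 to 7.90 in WT (median 7.54) and 7.16 to 7.35 in cKO (median 7.24). All 6 cKO arrays were below the lowest WT array, by a gap of only 0.04, and WT replicate 6 stood highest. The difference was -0.32 ± 0.07 (SE; 95% interval -0.49 to -0.16), and it missed the threshold over all probe sets. Without WT replicate 6 it was -0.26 and passed, and it passed in 4 of 23 other settings.

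Tenm1, the X-linked teneurin, ran the other way. Its level was 9.38 at the lowest, 9.50 at the median and 9.65 at the highest in WT, and 9.60, 9.67 and 9.77 in cKO. The groups overlapped, with 3 cKO arrays above the highest WT array, and all 6 above the WT mean. The difference was 0.18 ± 0.05 (SE; 95% interval 0.08 to 0.29) and missed the threshold. It was 0.22 and passed without WT replicate 1, the highest WT array, and it was 0.18 with the level of the Y-linked genes as a covariate.

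Upstream sequence is shown for the 2 teneurins that passed and for Tenm1, whose difference had the opposite sign, because forkhead factors bind short motifs that can be searched in it. RefSeq (GRCm38.p6) gave 12 start sites for 9 of the 10 members, and the 250 bases before each start were read. For 3 of the 12 windows the start is at the outer end of the annotated gene. For the windows of Tenm1, Tenm2 and Tenm3 it lies inside the gene, so a start farther upstream is not covered. The windows of Tenm1 and Tenm2 end in a T-rich stretch and AG, as introns do before an exon. A similar T-rich stretch and AG lies shortly before the end of the Tenm3 window. Each of these windows may thus be intron and not promoter sequence, in whole or in part. All 3 lie on the minus strand, Tenm2 at chr11:36944242-36944491, Tenm3 at chr8:48674691-48674940 and Tenm1 at chrX:43274785-43275034, written 5′ to 3′ with a motif match in capitals.
Tenm2: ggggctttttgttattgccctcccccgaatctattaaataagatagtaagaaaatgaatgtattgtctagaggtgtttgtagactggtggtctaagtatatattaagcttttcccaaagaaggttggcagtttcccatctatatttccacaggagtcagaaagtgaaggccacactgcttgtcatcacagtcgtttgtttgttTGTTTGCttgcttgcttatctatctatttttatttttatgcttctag
Tenm3: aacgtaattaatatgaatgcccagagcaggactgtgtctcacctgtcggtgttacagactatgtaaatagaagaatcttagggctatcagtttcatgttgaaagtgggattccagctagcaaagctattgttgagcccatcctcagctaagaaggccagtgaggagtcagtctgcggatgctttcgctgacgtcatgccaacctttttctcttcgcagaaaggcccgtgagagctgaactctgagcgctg
Tenm1: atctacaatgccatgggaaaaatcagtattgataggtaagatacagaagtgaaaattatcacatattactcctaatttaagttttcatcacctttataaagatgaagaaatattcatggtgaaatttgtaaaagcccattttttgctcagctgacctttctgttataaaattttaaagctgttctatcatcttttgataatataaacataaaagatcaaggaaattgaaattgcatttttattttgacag

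Short motifs that share the T-rich core of forkhead sites were searched on both strands. The first, TGTTTAC, is the usual forkhead consensus, and 3.17% of 32851 windows of the same length over all genes held it. A variant of it with G as the sixth base, TGTTTGC, was held by 4.3% of those windows. The third motif, TATTTAT, has been described for Foxp factors and was held by 5.17%. Its relative with a different sixth base, TATTTGT, was held by 3.29%, and 14.5% of the windows had at least 1 of the 4. The Tenm2 window had 1 match, to the second motif, and it was the only match in the 12 windows of the family. The match began 47 bases before the listed start, which lies inside the gene, in a run of short T and G repeats. The absence of a match says only that these letters are not in these windows.

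For the latrophilins, the receptors that teneurins and FLRT proteins share, the differences were -0.08 for Adgrl1, -0.04 for Adgrl2 and 0.12 for Adgrl3. None of the 3 passed in the fit or in any of 23 other settings, and in all 3 the WT and cKO arrays overlapped. Adgrl1, the receptor first known for binding latrotoxin, spanned 10.20 to 10.40 in WT (median 10.28) and 10.16 to 10.28 in cKO (median 10.21). All 6 cKO arrays lay below the WT mean, and 2 lay below the lowest WT array. The difference was -0.08 ± 0.03 (SE; 95% interval -0.14 to -0.01).

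Adgrl2, which acts on the postsynaptic side of hippocampal synapses, spanned 11.07 to 11.27 in WT (median 11.18) and 11.04 to 11.21 in cKO (median 11.16). The arrays of both groups were mixed, with 4 cKO arrays below the WT mean and 2 above it. The difference was -0.04 ± 0.04 (SE), and its 95% interval, from -0.12 to 0.04, leaves room for a small change in either direction. Adgrl3, a high-affinity receptor of Flrt3, spanned 9.46 to 10.002 in WT (median 9.68) and 9.67 to 9.99 in cKO (median 9.80). WT replicate 1 was the highest of all 12 arrays, while 5 of 6 cKO arrays lay above the WT mean. The difference was 0.12 ± 0.08 (SE), with a wider 95% interval from -0.06 to 0.30.

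Among the FLRT genes, the ligands of latrophilins and Unc5 receptors, Flrt2 and Flrt3 were lower in every cKO array than in any WT array, and Flrt1 was not. Neither Flrt2 nor Flrt3 passed the threshold over all probe sets. Flrt3, which helps form hippocampal synapses and takes part in the guidance of thalamic axons, spanned 8.30 to 9.01 in WT (median 8.50) and 8.06 to 8.25 in cKO (median 8.11). WT replicate 3 stood far above the other WT arrays, and the gap between the groups was 0.05. The difference was -0.41 ± 0.10 (SE; 95% interval -0.63 to -0.18), or 1.32-fold lower. Without WT replicate 3 it was -0.31 and passed, and it passed in 4 of 23 other settings.

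Flrt2, a ligand of Unc5d in migrating cortical neurons, spanned 10.05 to 10.36 in WT (median 10.15) and 9.82 to 10.03 in cKO (median 9.92). The gap between the groups was 0.02, less than the SD of either group (0.13 in WT, 0.086 in cKO). The difference was -0.27 ± 0.06 (SE; 95% interval -0.40 to -0.14), it passed in 2 of 23 other settings, and it was -0.19 without WT replicates 3 and 6. Flrt1, a family member that signals together with fibroblast growth factor receptors, spanned 6.31 to 6.72 in WT (median 6.58) and 6.44 to 6.69 in cKO (median 6.57). The arrays of the genotypes were mixed. The difference was 0.02 ± 0.07 (SE; 95% interval -0.13 to 0.16), and its sign turned without WT replicate 5 (-0.03) or cKO replicate 4 (-0.0042).

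**Figure D2:**
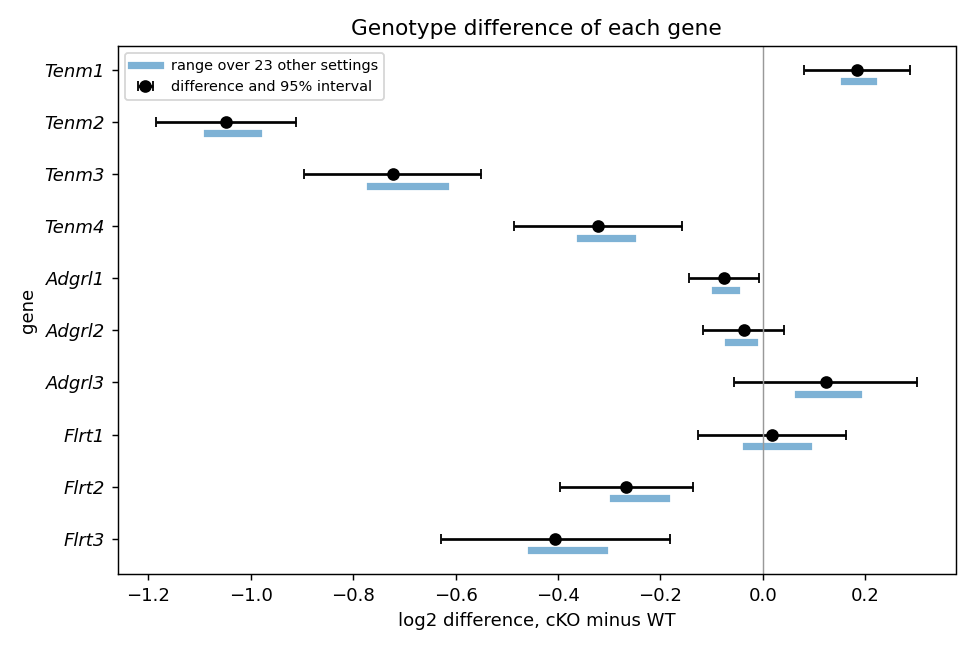
For each gene the black point gives the log2 difference, cKO minus WT, with limma's 95% interval, and the blue bar below it gives the range over 23 other settings. Tenm2 (-1.05) and Tenm3 (-0.72) lie farthest to the left, the intervals of Tenm4, Flrt2 and Flrt3 lie below 0, that of Tenm1 lies above 0, and those of Adgrl2, Adgrl3 and Flrt1 include 0.

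Across the 10 members, 7 differences were negative and 3 positive, with a median of -0.17 against -0.00077 over all probe sets. In 5 members, all lower, arrays of the genotypes did not overlap, where 1.38% of all probe sets showed no overlap and 0.822% were lower without overlap. A size of at least 0.1 was seen in 7 members and in 9.41% of all probe sets. These counts describe the contrast the family was picked from. In whole tissue, fewer cells expressing a gene and less RNA per cell cannot be told apart. The mean of 3 cortical neuron markers ran from 6.30 to 7.06 over the WT arrays and from 6.48 to 7.49 over the cKO arrays. With that mean as a covariate the difference was -1.0 for Tenm2, -0.67 for Tenm3, -0.31 for Flrt3 and -0.23 for Flrt2. It was -0.36 for Tenm4 and 0.21 for Tenm1, both farther from 0 than without the covariate. For Adgrl1, Adgrl2, Adgrl3 and Flrt1 it was -0.077, -0.058, 0.071 and 0.060. The part of cortical tissue in these differences was not tested further.

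Spread between embryos of 1 genotype was also compared. It varied with level. The median SD was 0.046 in WT and 0.041 in cKO over all probe sets, and 0.090 and 0.071 over the brighter probe sets. The comparison is therefore not independent of the difference in level between genotypes, and the part of level in it was not tested. The SD over the 6 WT arrays was larger than that over the 6 cKO arrays in 10 of 10 members, against 59.7% of all probe sets and 67.6% of the brighter probe sets. The median ratio of the SDs was 1.59 over the members, 1.13 over all probe sets and 1.26 over the brighter probe sets. The ratio was highest for Flrt3 (SD 0.26 in WT, 0.076 in cKO) and Tenm4 (SD 0.18 and 0.068), and lowest for Adgrl2 (SD 0.070 and 0.062). Without WT replicates 3 and 6, which correlated least with their group, the WT SD was larger in 6 of 10 members and in 50.2% of all probe sets. All members were measured on the same arrays, so the 10 are not separate observations and nothing is concluded from their count.

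**Figure D3:**
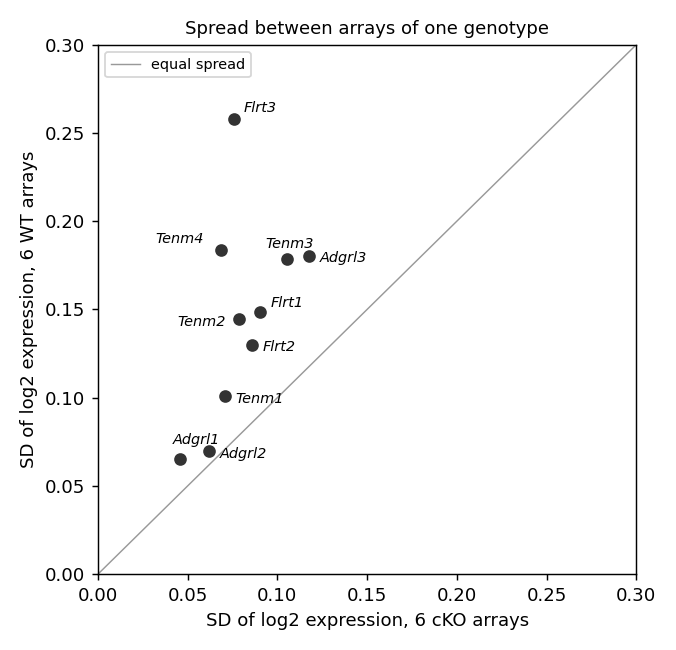
Each point is 1 gene, with the SD of log2 expression over 6 cKO arrays on the horizontal axis and over 6 WT arrays on the vertical axis; the line marks equal spread. All 10 genes lie above the line, Flrt3 farthest and Adgrl2 closest.

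Within a genotype, members could also vary together from embryo to embryo. Over the 45 pairs in each genotype, 90 relations in all, 7 had an unadjusted exact permutation p under 0.05 and 0 passed after Benjamini-Hochberg adjustment (lowest adjusted p = 0.4375). With 6 arrays the smallest possible exact permutation p was 0.0014. A single relation could therefore not pass the adjustment over 90 whatever its r, and nothing is concluded from the 0. Tenm2 and Tenm3 had r = 0.87 over the 6 WT arrays (exact permutation p = 0.0097, adjusted p = 0.4375) and rho = 0.94 (exact permutation p = 0.0167, adjusted p = 0.559), and r = 0.65 without the 2 arrays farthest from the Tenm2 median. Over the 6 cKO arrays the same pair had r = 0.23 (exact permutation p = 0.668, adjusted p = 0.880), rho = 0.54 (exact permutation p = 0.297, adjusted p = 0.892), and r = 0.59 without the 2 farthest arrays. The relation of Tenm3 with Tenm4 over the 6 cKO arrays was negative, with r = -0.83 (exact permutation p = 0.0069, adjusted p = 0.4375), rho = -0.83 (exact permutation p = 0.0583, adjusted p = 0.559), and r = -0.66 without the 2 arrays farthest from the Tenm3 median. Over the 6 WT arrays that pair had r = 0.51 (exact permutation p = 0.325, adjusted p = 0.75) and rho = 0.26 (exact permutation p = 0.658, adjusted p = 1), and r = -0.90 without the 2 farthest arrays. Tenm4 and Adgrl1 had r = 0.90 in WT (exact permutation p = 0.025, adjusted p = 0.45; rho = 0.83, exact permutation p = 0.0583, adjusted p = 0.559), which became 0.11 without the 2 arrays farthest from the Tenm4 median. In cKO they had r = -0.90 (exact permutation p = 0.0194, adjusted p = 0.45; rho = -0.89, exact permutation p = 0.0333, adjusted p = 0.559), and r = -0.88 without the 2 farthest arrays. The difference between genotypes in these relations was not tested.

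The probe sets whose values were most like those of Tenm2 over the 12 arrays were ranked by Pearson's r, which here mostly orders genes by how cleanly they separate the genotypes. The 5 nearest outside the family were Foxp1 (r = 0.972), the glypican gene Gpc6 (0.970), the ephrin receptor gene Epha7 (0.964), the kainate receptor subunit gene Grik2 (0.964) and the vinculin gene Vcl (0.963). These are descriptions over shared arrays and carry no test. After the group means were taken out, the values were 0.50 for Foxp1, 0.54 for Gpc6, 0.36 for Epha7, 0.28 for Grik2 and 0.57 for Vcl. All 5 were lower in cKO, from -0.39 ± 0.04 (SE) for Vcl to -0.91 ± 0.07 for Foxp1.

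Reported binding partners of the families showed no change past the threshold. The list held 15 genes, 14 of them with a named probe set, for Unc5 receptors, fibroblast growth factor receptor 1, Robo1, neurexins, a contactin, dystroglycan, the Shank scaffolds and the latrophilin relative Adgrl4. In limma 0 of 14 passed over all probe sets, and the median difference was 0.00025. An unadjusted limma p below 0.05 was reached by 2 of the 14, both higher. Of all 25428 probe sets, 2729 reached it, 1287 of them higher, so nothing is read from the 2. Unc5d, a repulsive receptor of Flrt2, averaged 8.71 ± 0.28 over the WT arrays and 9.14 ± 0.13 over the cKO arrays (SD, n = 6 each). The cKO arrays lay between 9.04 and 9.38, within or above the upper part of the WT range of 8.29 to 9.13. The difference was 0.43 ± 0.12 (SE; limma adjusted p = 0.154), it ran from 0.29 to 0.52 over the other settings, and it passed only without WT replicate 5 (0.52, limma adjusted p = 0.0396, against adjusted p up to 0.473 elsewhere). Nrxn2, a presynaptic neurexin, had a difference of 0.14 ± 0.06 (SE; limma adjusted p = 0.428).

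Other members of the same superfamilies gave a background for the receptors and the leucine-rich repeat proteins. Over all probe sets, 0.728% passed the threshold in either direction. Of 16 other adhesion G protein-coupled receptors, with a median difference of -0.025, 1 passed as higher and 0 as lower. It was Adgrg6, a receptor known from Schwann cell myelination, with means of 5.74 ± 0.04 over the WT arrays and 5.93 ± 0.06 over the cKO arrays (SD, n = 6 each), a level near the median of all probe sets. Its difference of 0.19 ± 0.03 (SE; limma adjusted p = 0.0119) missed the threshold with the replicate number as a block (limma adjusted p = 0.0653) and without WT replicates 3 and 6 (limma adjusted p = 0.0730), the range over the other settings being 0.0034 to 0.0730. Of 22 other leucine-rich repeat membrane proteins of neurons, with a median difference of 0.00047, 1 passed as lower and 0 as higher. It was Lrrc4c, the netrin-G1 ligand, with means of 7.82 ± 0.09 over the WT arrays and 7.41 ± 0.07 over the cKO arrays (SD, n = 6 each). It fell by 0.40 on the log2 scale (SE 0.04, limma adjusted p = 0.00145), without overlap between the groups, and passed in 23 of 23 other settings.

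**Figure D4:**
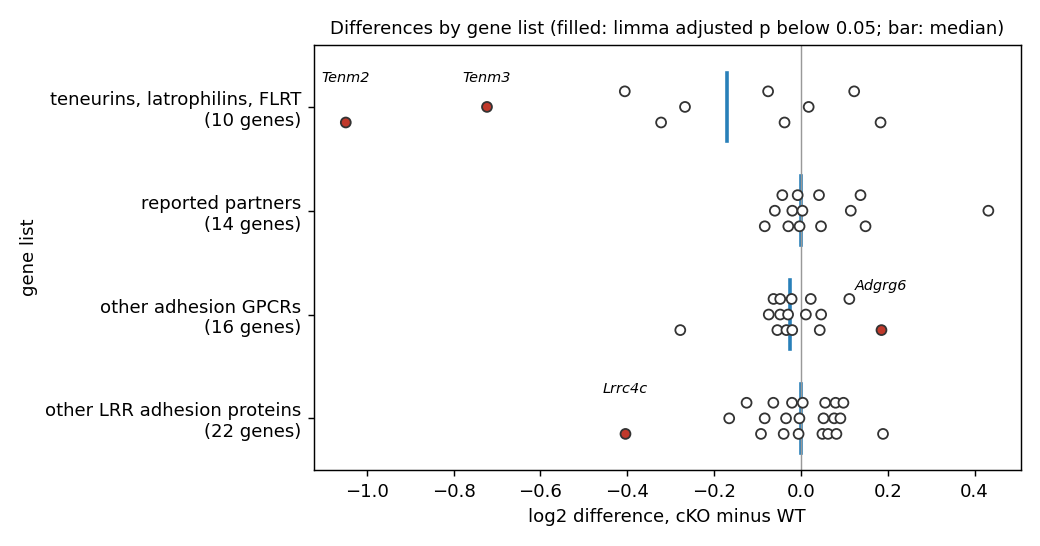
Each circle is 1 gene at its log2 difference, cKO minus WT; filled circles passed a limma adjusted p of 0.05, and blue bars give list medians. Tenm2 and Tenm3 lie to the left of every gene of the 3 further lists, in which Adgrg6 (0.19) and Lrrc4c (-0.40) are the only filled circles.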

How the data were processed

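The single deposited table held log2 expression values made by the authors with RMA, per the submitters' processing notes; the array software, the probe-to-gene definition and the genome build are not given in the sources used here. RMA corrects background and gives all arrays 1 distribution, so a change common to all genes would not be visible and changes of dim genes are compressed. The number of arrays limits the precision. Symbols came from the platform annotation, updated through a RefSeq gene table, for 24674 of 25428 probe sets. The remaining 754 were left unnamed.

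The deposited values of all 12 arrays and 25428 probe sets entered 1 linear model of genotype, without covariates (limma 3.58.1, R 4.3.3, moderated two-sided test). P was adjusted by Benjamini-Hochberg over all probe sets and compared with 0.05, whatever the fold. Differences are cKO minus WT. The fit was tested on simulated data. The members and all lists were chosen with earlier results of these data known. Named genes are the members, Foxp1, genes past the threshold in the 3 further lists (partners, other adhesion receptors, other leucine-rich repeat proteins; if none, the 2 of smallest p), and the 5 probe sets most correlated with Tenm2. Brighter probe sets are those with a mean at or above 5.71. Other settings were repeated quantile normalization, cyclic loess, median centring, weights per array, a trended robust prior, leaving out dim or unnamed probe sets, a replicate block, Y-linked or cortical levels as covariates, leaving out arrays, an adjusted p of 0.01 and a 1.5-fold minimum. The Y-linked covariate used 3 genes and the cortical one 3.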

Additional observations from a re-analysis of the deposited data

Results flagged for a closer look

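In the cKO group, Tenm3 on replicate 5 was the lowest of 6 arrays at 8.64, with the nearest array at 8.88. The gap was 0.906 of the range of the group, above the 95% critical value of Dixon's test. Chance gives a value above that critical value in about 5% of groups, and 22 groups (11 genes in 2 genotypes, Foxp1 included) were examined. Without this array the Tenm3 difference was -0.68 and passed the threshold.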

How the results depend on the processing

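The signs of the differences of Tenm1 to Tenm4, Adgrl1 to Adgrl3, Flrt2 and Flrt3 were kept in 23 of 23 other settings; that of Flrt1 turned without WT replicate 5 (-0.033) and without cKO replicate 4 (-0.0042), and spanned -0.033 to 0.050 when single arrays were left out. The number of members called was 2 in the main fit, 5 with dim probe sets left out and 5 with a trended robust prior (Tenm2, Tenm3, Tenm4, Flrt2 and Flrt3, all lower), 4 without WT replicates 3 and 6 together, and 2 to 3 when single arrays were left out. Among all 25428 probe sets, 185 were called in the main fit, 254 with a trended robust prior and 124 without WT replicates 3 and 6 together. With dim probe sets left out, 278 of the 12713 kept were called. The number was 64 with the replicate block, 56 with the cortical covariate, 61 at an adjusted p below 0.01 and 30 with at least 1.5-fold. It was 106 to 227 when single arrays were left out, with 106, 117 and 109 without cKO replicates 2, 3 and 5. The partner list had 0 to 1 called when single arrays were left out (1, Unc5d, without WT replicate 5). The list of other adhesion receptors had 1 called, 2 with dim probe sets left out and 2 with a trended robust prior (Adgrg6, and Adgrb2, lower, named after its values were seen), and 0 with the replicate block, without WT replicates 3 and 6, at an adjusted p below 0.01 and with at least 1.5-fold. The leucine-rich repeat list had 1 called, and 0 with at least 1.5-fold. Stricter thresholds give fewer calls by construction. With dim probe sets left out, fewer probe sets were tested, and limma's prior was also estimated from the kept ones alone. Which of these mattered, and the cause of the other shifts, was not tested. Replicate numbers are shared between groups, and the labels do not say whether they pair arrays. Same-numbered arrays deviated together with r from -0.22 to 0.15, and 0 of 6 WT arrays correlated best with its own number. These values gave no sign of pairing by number, and a shared litter or batch was not tested. With the block, 2 members were called, Tenm2 and Tenm3.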
